A study of Mus musculus with 2 samples.

Results

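Versican and the genes that make, bind and degrade hyaluronan were examined in cells of the mouse aorta. They comprise 8 genes: the proteoglycan Vcan, the hyaluronan synthases Has1, Has2 and Has3, the precursor enzyme Ugdh, the receptor Cd44 and the hyaluronidases Hyal1 and Hyal2. Members were matched by symbol, and each of the 8 had 1 row among the 32285 genes of both count matrices. The choice used gene function and no measured value, but it was made with earlier results of these data known.

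The single-cell RNA sequencing study compared 2 droplet libraries, 1 of knock-in mice with a mutated matrix Gla protein (MGP), an inhibitor of calcification that binds bone morphogenetic proteins, and 1 of wild-type mice. Its title asks how the mutation bears on the differentiation of cells in the aortic media. Mice of both genotypes were 1 month old and of both sexes. The adventitia had been dissected away, the rest was dissociated with Liberase, and dead cells had been sorted out by DAPI. Both libraries bore 1 batch label. The sources used here give neither the residue mutated, nor allele dosage, strain or the number of mice pooled per library. Since 1 library stood for each genotype, no test between genotypes was possible and differences between mice cannot be told apart from the genotype.

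Hyaluronan is a long unsulfated polysaccharide that synthases extrude through the plasma membrane, using UDP-glucuronic acid, which the dehydrogenase encoded by Ugdh makes, and UDP-N-acetylglucosamine. Versican is a large chondroitin sulfate proteoglycan that binds hyaluronan and link proteins, and together they form the hydrated matrix around vascular smooth muscle cells (SMCs) and fibroblasts. CD44 is the main cell-surface receptor of hyaluronan. HYAL2, anchored at the cell surface, and HYAL1, in lysosomes, cut the polymer. In arteries this matrix is known from development and from thickening of the vessel wall.

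Promoter windows of Has1, Ugdh and Cd44 are shown because Has1 and Ugdh had their highest levels in the same cluster of cells and Cd44 differed most between the genotypes in fibroblast-like cells. Each window runs from 250 bases before to 50 after the gene's start, on the minus strand of GRCm38.p6, from RefSeq, which listed 6 of the 8 members (not Has2 or Has3). Capitals mark matches on either strand to a GC box (GGGCGG) or a cAMP response element (TGACGTCA), and positions count from 1 at the 5′ end.
Has1, chr17:17855139-17855438: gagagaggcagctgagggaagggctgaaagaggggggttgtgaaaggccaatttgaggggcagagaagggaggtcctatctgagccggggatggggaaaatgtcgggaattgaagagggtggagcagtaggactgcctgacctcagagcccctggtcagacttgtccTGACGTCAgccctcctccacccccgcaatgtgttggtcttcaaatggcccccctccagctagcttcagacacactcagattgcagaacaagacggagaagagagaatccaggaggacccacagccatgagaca
Ugdh, chr5:65435793-65436092: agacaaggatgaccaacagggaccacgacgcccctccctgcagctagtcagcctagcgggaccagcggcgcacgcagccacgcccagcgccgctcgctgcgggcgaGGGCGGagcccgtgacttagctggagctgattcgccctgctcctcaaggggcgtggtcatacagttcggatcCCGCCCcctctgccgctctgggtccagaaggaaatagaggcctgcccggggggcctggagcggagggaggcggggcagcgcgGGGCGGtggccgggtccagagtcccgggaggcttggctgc
Cd44, chr2:102901616-102901915: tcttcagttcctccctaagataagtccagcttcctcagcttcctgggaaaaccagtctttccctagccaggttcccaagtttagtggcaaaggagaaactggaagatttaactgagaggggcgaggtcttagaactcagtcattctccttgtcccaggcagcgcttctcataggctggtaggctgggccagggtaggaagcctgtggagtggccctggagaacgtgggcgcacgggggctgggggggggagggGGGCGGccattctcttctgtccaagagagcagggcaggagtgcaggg
Has1 held 1 cAMP response element, at position 168, which 1.79% of 32851 windows of this length held. Ugdh held 3 GC boxes, at positions 107, 179 and 261, and Cd44 held 1, at position 254. At least 1 GC box was present in 35.7% of all windows. None of the 6 members had an E-box (CACGTG, in 7.15% of windows) or an AP-1 motif (TGANTCA, in 7.81%). These matches describe letters and not bound sites.

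The knock-in matrix held 85831737 UMIs (unique molecular identifiers, 1 per captured RNA molecule) and the wild-type matrix 79626104. Filtering left 6089 knock-in cells (median depth 11653 UMIs) and 3588 wild-type cells (20395.5 UMIs). SMC-like cells numbered 2579 in the knock-in and 298 in the wild-type library, fibroblast-like cells 2921 and 2694, macrophage or monocyte-like cells 294 and 353, and endothelial-like cells 45 and 64. The defining markers of each class were present: the 12 SMC markers summed to 41600 CPM in knock-in and 43152 CPM in wild-type SMC-like cells, and the 12 fibroblast markers to 21647 and 18959 CPM in fibroblast-like cells. Levels are CPM, each gene's UMIs divided by the UMIs of all genes in those cells and multiplied by 1e+06, and intervals are 95% and cover counting error only. A gene counts as higher or lower in knock-in cells where it was at least 1.5-fold apart with at least 50 UMIs over both libraries.

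**Figure D1:**
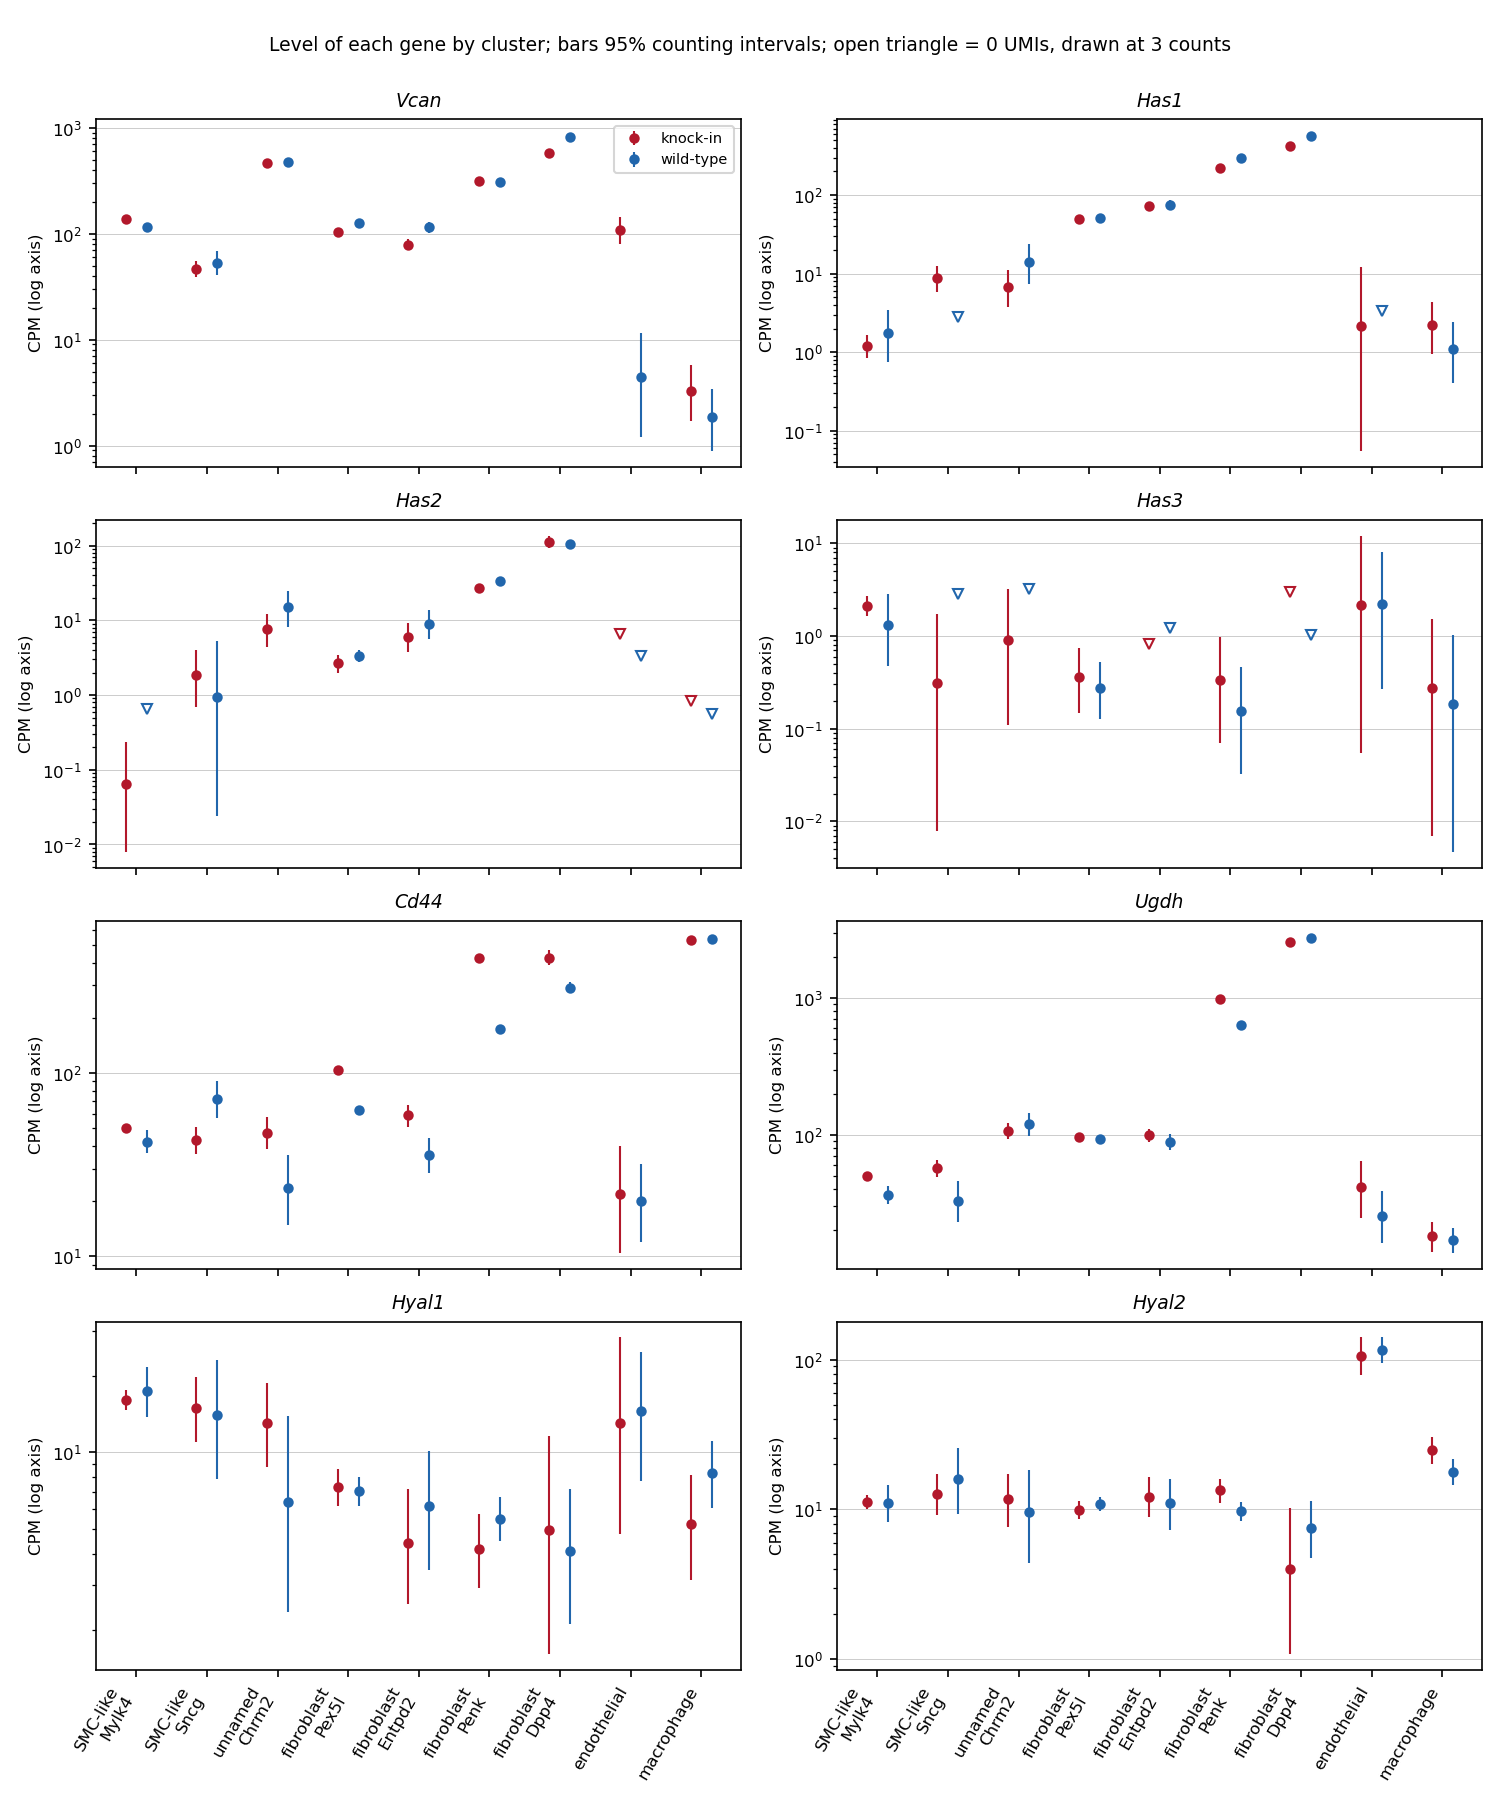
Level of each gene (CPM, log axis) in 9 clusters, knock-in in red left of wild-type in blue, with 95% counting intervals as bars and open triangles at 3 counts where a library had 0 UMIs. Has1, Has2 and Ugdh peak in the Dpp4 cluster of fibroblast-like cells, Cd44 also in macrophage or monocyte-like cells, and Hyal2 in endothelial-like cells at 106 and 116 CPM.

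The genes differed in the cells that held most of their UMIs. Fibroblast-like cells fell into 4 clusters, called here after Pex5l, Entpd2, Penk and Dpp4. Pex5l and Penk led their clusters by fold, while Entpd2 and Dpp4 were among the 10 leading genes of theirs. Fibroblast-like cells held 96.7% of Has1, 93.9% of Has2 and 85.9% of Ugdh UMIs in the knock-in library, against 95.2%, 96.1% and 94.0% in the wild-type library. SMC-like cells held 82.5% of the Has3 and 67.9% of the Hyal1 UMIs in the knock-in library, against 27.3% and 17.7% in the wild-type library, in which SMC-like cells made up only 8.31% of kept cells, against 42.4% in the knock-in library. In the wild-type library fibroblast-like cells held 12 of the 22 Has3 and 360 of the 538 Hyal1 UMIs. The plot by cluster shows CPM in both libraries and not these shares.

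Vcan was measured in both mesenchymal classes. In fibroblast-like cells it stood at 173 CPM (168 to 177) in knock-in and 222 CPM (218 to 226) in wild-type cells, a log2 ratio of knock-in over wild-type of -0.36 (-0.40 to -0.31). In SMC-like cells it stood at 129 CPM (125 to 132) in knock-in and 103 CPM (94.8 to 112) in wild-type cells, a log2 ratio of 0.32 (0.19 to 0.45). The ratios thus had opposite signs and neither reached 1.5-fold.

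Within classes the Vcan level varied more between clusters than between genotypes. It was highest in the Dpp4 cluster, at 575 CPM in 50 knock-in and 825 CPM in 120 wild-type cells, where a single wild-type cell held 319 of the 2411 UMIs. Next came an unnamed cluster led by Chrm2 that expresses SMC and fibroblast markers, with 465 CPM (437 to 494) in knock-in and 472 CPM (429 to 518) in wild-type cells, and the Penk cluster with 313 and 305 CPM. The log2 ratios in these were -0.52, -0.02 and 0.03. Lower levels, with intervals that overlap among them in the wild-type library, were found in the Pex5l (105 CPM knock-in, 126 CPM wild-type), Entpd2 (78.8 and 115 CPM) and Mylk4-led SMC-like clusters (137 and 115 CPM). The Sncg-led SMC-like cluster followed with 46.6 CPM in knock-in and 53.4 CPM in wild-type cells. In macrophage or monocyte-like cells Vcan was at 3.29 and 1.84 CPM. Cells of 3000 or more UMIs were also thinned to 3000 UMIs each, and cells below that were left out. A Vcan UMI was then found in 27.3% of 2534 knock-in and 36.6% of 2628 wild-type fibroblast-like cells. Before thinning the shares were 49.3% and 78.9%, over all 2921 and 2694 cells of the class. In macrophage or monocyte-like cells the thinned shares were 0% and 0.575%.

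Endothelial-like cells differed most in Vcan between the genotypes, but the count rests on few cells. It had 50 UMIs in knock-in and 4 UMIs in wild-type endothelial-like cells, or 108 CPM (80.5 to 143) and 4.47 CPM (1.22 to 11.4), with a log2 ratio of 4.60 (3.16 to 6.53). Of the 4560 genes at the count minimum in this class, 7.87% were higher. Only 7 of 45 knock-in cells held a Vcan UMI, and 2 of them held 40 of the 50, with 26 and 14 UMIs each. Without the cell with the most UMIs in each library the log2 ratio was 3.97. The 26-UMI cell had 41 Pecam1 and 13 Cdh5 UMIs, both endothelial markers, and 0 Dcn and 0 Myh11 UMIs. The 14-UMI cell had 17 Pecam1, 4 Cdh5, 2 Dcn and 0 Myh11 UMIs. The same 2 cells held 36 of the 37 Hapln1 UMIs of the class. Hapln1 encodes a link protein that ties versican to hyaluronan, and it had 0 UMIs in wild-type endothelial-like cells. Its knock-in value was at least 23.95-fold above a floor of 3 counts per library. With 37 UMIs it is under the count minimum and was not called higher. Hapln1 in this class was singled out after its values had been seen.

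The synthases were largely a fibroblast feature. Has1 stood at 110 CPM (107 to 114) in knock-in and 161 CPM (157 to 164) in wild-type fibroblast-like cells, a log2 ratio of -0.55 (-0.60 to -0.49). Has2, the main synthase of the developing cardiovascular system, stood at 13.1 CPM (11.9 to 14.4) in knock-in and 18.9 CPM (17.8 to 20.1) in wild-type cells, a log2 ratio of -0.53 (-0.70 to -0.37). Both values lay below those of wild-type cells by more than counting error and short of 1.5-fold. Has2os, transcribed from the opposite strand, overlaps Has2, and the sources used here do not say whether counting used strand.

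Both synthases were graded over the fibroblast-like clusters in the same order at the top. Has1 stood at 416 CPM in knock-in and 556 CPM in wild-type cells of the Dpp4 cluster, at 223 and 298 CPM in the Penk cluster, at 72.7 and 75.6 CPM in the Entpd2 cluster and at 49.2 and 50.3 CPM in the Pex5l cluster. Has2 stood at 113 and 106 CPM in the Dpp4 cluster, at 27.2 and 33.2 CPM in the Penk cluster, at 6.08 and 8.996 CPM in the Entpd2 cluster and at 2.65 and 3.34 CPM in the Pex5l cluster. The Has1 log2 ratios were -0.42 in the Dpp4 and Penk clusters. They were -0.06 (-0.33 to 0.22) in the Entpd2 cluster and -0.03 (-0.15 to 0.08) in the Pex5l cluster. In the Penk and Dpp4 clusters the order of the genotypes for Has1 was the opposite in a narrower depth range. In cells of 8000 to 20000 UMIs the Penk cluster held 199 CPM in 327 knock-in and 167 CPM in 304 wild-type cells. In the same window the Dpp4 cluster held 407 and 277 CPM, in 26 cells of each library. The Has1 ratio there was -0.25 (-0.69 to 0.20) in the Entpd2 and 0.07 (-0.11 to 0.27) in the Pex5l cluster. Over all fibroblast-like cells of this window it stayed below 0, at -0.17 (-0.27 to -0.06).

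The mix of clusters moved with these ratios. The Penk and Dpp4 clusters, which together held 66.5% of knock-in and 80.2% of wild-type fibroblast Has1 UMIs, made up 21.5% (19.99% to 23.0%) of knock-in and 36.3% (34.5% to 38.2%) of wild-type fibroblast-like cells. The Entpd2 cluster was of low depth, with medians of 3318 UMIs in knock-in and 6335 UMIs in wild-type cells. It made up 27.5% of knock-in and 10.5% of wild-type fibroblast-like cells, and its part in these shares was not tested. With the knock-in clusters weighted by the wild-type UMIs of each cluster, the log2 ratio was -0.33 for Has1, -0.18 for Has2 and -0.16 for Vcan.

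Has1 and Has2 were low in SMC-like, macrophage or monocyte-like and endothelial-like cells. Has1 had 1.92 CPM in knock-in and 1.41 CPM in wild-type SMC-like cells, and 1.78% and 2.68% of those cells held a UMI (medians of 12204 and 17360.5 UMIs per cell). In macrophage or monocyte-like cells, taken as a class that should lack it, the shares were 2.38% and 1.70% (medians of 11494.5 and 15003 UMIs). The knock-in SMC-like share is thus no higher than in that class, and the wild-type share rests on 8 UMIs. Subtracting estimated free RNA left 1.03 CPM in knock-in and 0.496 CPM in wild-type SMC-like cells. An exception in value was the Sncg-led SMC-like cluster, with 28 Has1 UMIs (8.70 CPM) in 247 knock-in and 0 UMIs in 52 wild-type cells. Its knock-in value was at least 3.09-fold above the floor, but 4.45% of its knock-in cells held these UMIs. With 28 UMIs Has1 is under the count minimum in this cluster and was not called higher. Has2 had 8 UMIs in knock-in and 1 UMI in wild-type SMC-like cells. The unnamed clusters held more: the Chrm2-led cluster had 7.65 CPM of Has2 in knock-in and 14.9 CPM in wild-type cells, on 17 and 14 UMIs, and an unnamed cluster led by Mcpt4 had 27.5 CPM of Has1 in knock-in and 127 CPM in wild-type cells. The 8 mesothelial-like cells, all wild-type, held 70.1 CPM of Has1.

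Has3 had a very low level. Has1 stood close to it in SMC-like cells, at 1.92 CPM in knock-in and 1.41 CPM in wild-type cells. Has3 had 66 UMIs in knock-in and 6 UMIs in wild-type SMC-like cells, or 1.95 CPM (1.51 to 2.48) and 1.06 CPM (0.388 to 2.30). Its log2 ratio was 0.88 (-0.32 to 2.38). A Has3 UMI was present in 2.37% of knock-in and 2.01% of wild-type SMC-like cells, against 0.340% and 0.283% of macrophage or monocyte-like cells. Its level in near-empty barcodes was 1.32 CPM in the knock-in and 0.684 CPM in the wild-type library. Has3 was the only 1 of the 7 members tested in SMC-like cells to pass 1.5-fold, and its interval includes 0. Among all 12349 genes tested there, 8.16% were higher and 7.04% lower, so 1 of 7 higher and 0 lower is near the background. Fibroblast-like cells had 10 and 12 Has3 UMIs, too few for a ratio.

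Ugdh had similar levels over the summed UMIs of the whole fibroblast class and unlike levels within it. It stood at 412 CPM (405 to 419) in knock-in and 414 CPM (408 to 419) in wild-type fibroblast-like cells, a log2 ratio of -0.01 (-0.04 to 0.02). In the Penk cluster it stood at 978 CPM (958 to 999) in knock-in and 637 CPM (626 to 648) in wild-type cells, a log2 ratio of 0.62 (0.58 to 0.66), in a cluster where 5.73% of 11754 genes were higher. In its cells of 8000 to 20000 UMIs Ugdh stood at 592 CPM in knock-in and 413 CPM in wild-type cells, a ratio of 0.52 (0.43 to 0.60) that misses 1.5-fold. In the Dpp4 cluster it was far higher, at 2575 CPM (2477 to 2676) in knock-in and 2764 CPM (2704 to 2825) in wild-type cells, a log2 ratio of -0.10. All cells of the Dpp4 cluster held a Ugdh UMI, and after thinning to 3000 UMIs 98% of knock-in and 95.8% of wild-type cells did. The Pex5l and Entpd2 clusters lay far below the Penk cluster, at 96.0 and 98.9 CPM in knock-in and 93.8 and 88.3 CPM in wild-type cells. With the knock-in clusters weighted by wild-type UMIs the class ratio was 0.33. As a mean of per-cell CPM it was -0.52, and in cells of 8000 to 20000 UMIs it was -0.17 (-0.23 to -0.11). Gm43552 and Gm43289 overlap Ugdh on the same strand, so its reads may be shared with them.

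Ugdh in SMC-like cells stood at 50.7 CPM (48.3 to 53.2) in knock-in and 35.8 CPM (31.1 to 41.1) in wild-type cells, a log2 ratio of 0.50 (0.29 to 0.72), just under 1.5-fold. Its ratio was 0.79 (0.27 to 1.36) in the Sncg-led cluster, where 9.86% of genes were higher, on 183 and 35 UMIs. In macrophage or monocyte-like cells Ugdh was at 18.1 and 16.96 CPM. Free RNA held 253 CPM of Ugdh in the knock-in and 213 CPM in the wild-type library, and its estimated share of SMC-like UMIs was 0.866% and 0.715%. Subtracting it left the SMC-like ratio at 0.50.

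Cd44 was the member with the clearest difference between the genotypes in fibroblast-like cells. It stood at 196 CPM (191 to 201) in knock-in and 110 CPM (108 to 113) in wild-type fibroblast-like cells, 1.78-fold higher, with a log2 ratio of 0.83 (0.78 to 0.88). Of the 7 members tested in this class, 1 was higher and 0 were lower, against 7.51% higher and 7.4% lower among 14073 genes. That share of members is near the background. With a mean of per-cell CPM, and also in female cells alone, Cd44 missed 1.5-fold while Vcan, Has1 and Has2 were lower.

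The Cd44 values were higher in knock-in cells of each fibroblast-like cluster, though the size differed. The Penk cluster had 426 CPM (412 to 439) in knock-in and 173 CPM (167 to 179) in wild-type cells, a log2 ratio of 1.30 (1.23 to 1.37). The Pex5l cluster had 104 CPM in knock-in and 62.4 CPM in wild-type cells, a ratio of 0.73, and the Entpd2 cluster 58.6 and 35.6 CPM, a ratio of 0.72. In these clusters 8.88% and 8.99% of genes were higher. The Dpp4 cluster had 426 CPM (387 to 469) in knock-in and 292 CPM (273 to 312) in wild-type cells, a ratio of 0.55 that misses 1.5-fold.

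**Figure D2:**
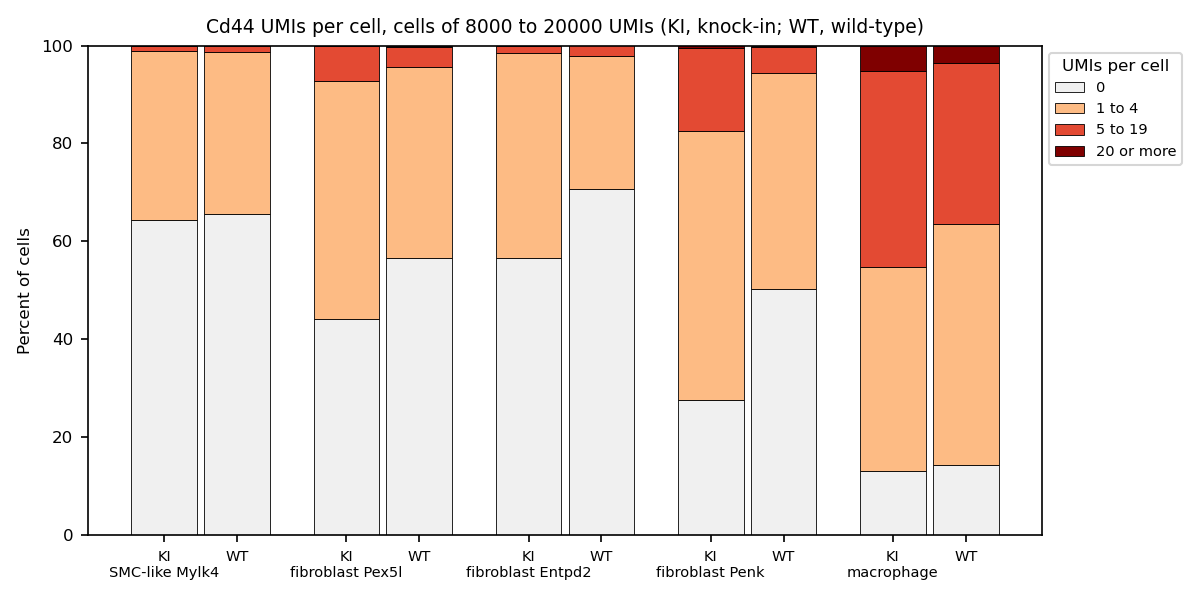
Share of cells (percent) by the number of Cd44 UMIs they held, in cells of 8000 to 20000 UMIs, with knock-in (KI) left of wild-type (WT) in each cluster. In the Penk cluster 27.5% of knock-in and 50.3% of wild-type cells held 0 Cd44 UMIs, while the Mylk4-led SMC-like bars are close at 64.3% and 65.6%. The Mylk4-led cells had median depths of 12121.5 UMIs in knock-in and 15345 UMIs in wild-type cells. Their Cd44 log2 ratio in this window was 0.36 (0.04 to 0.69).

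Within 1 range of depth, the difference in the Penk cluster lay in many cells. Among cells of 8000 to 20000 UMIs, 27.5% (22.8% to 32.7%) of 327 knock-in and 50.3% (44.6% to 56.1%) of 304 wild-type cells held 0 Cd44 UMIs. Cells with 5 to 19 UMIs made up 16.8% in knock-in and 5.26% in wild-type cells, and those with 20 or more 0.612% and 0.329%. The bar plot of Cd44 UMIs per cell shows the same order in the Pex5l cluster, where 44.1% of knock-in and 56.5% of wild-type cells held 0. The Dpp4 cluster did not show it: 50% of its 26 knock-in and 42.3% of its 26 wild-type cells held 0, and Cd44 stood at 134 CPM in knock-in and 119 CPM in wild-type cells, a log2 ratio of 0.17 (-0.41 to 0.75). In this depth window the log2 ratio over all fibroblast-like cells was 0.83.

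Macrophage or monocyte-like cells had the highest Cd44 level of the named classes, and over all depths it was close between the genotypes. They held 530 CPM (506 to 554) in knock-in and 535 CPM (516 to 555) in wild-type cells, a log2 ratio of -0.01 (-0.10 to 0.07). In cells of 8000 to 20000 UMIs they held 500.1 CPM in knock-in and 378 CPM in wild-type cells, a ratio of 0.41 (0.30 to 0.51). The 12 macrophage or monocyte markers summed to 35.7 CPM in knock-in and 41.8 CPM in wild-type fibroblast-like cells, with 3 of 12 higher in value in knock-in cells and Fcgr1 at 0 there. Free RNA held 161 CPM of Cd44 in the knock-in and 91.7 CPM in the wild-type library, and its estimated share of fibroblast-like UMIs was 1.59% and 1.05%. Subtracting it left the Cd44 ratio in fibroblast-like cells at 0.82. The 12 SMC markers summed to 755 CPM in knock-in and 429 CPM in wild-type fibroblast-like cells, with 10 of 12 higher in value, and their part in the result was not tested.

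Cd44 in SMC-like cells stood at 49.6 CPM (47.2 to 52.0) in knock-in and 47.8 CPM (42.3 to 53.8) in wild-type cells, a log2 ratio of 0.05 (-0.13 to 0.24). The ratio was 0.40 in cells of 8000 to 20000 UMIs. Over all depths the clusters of the class pointed in opposite directions. The Mylk4-led cluster had 50.2 CPM in knock-in and 42.2 CPM in wild-type cells. The Sncg-led cluster had 43.2 CPM (36.3 to 51.0) in knock-in and 72.2 CPM (56.9 to 90.2) in wild-type cells, a ratio of -0.74 (-1.15 to -0.32) where 7.61% of genes were lower, and 20 of the 77 wild-type UMIs came from 1 cell. In cells of 8000 to 20000 UMIs the sign of the Sncg-led ratio turned, to 0.48 (-0.37 to 1.44), with 37.5 CPM in 200 knock-in and 26.9 CPM in 32 wild-type cells. In the Chrm2-led cluster Cd44 stood at 47.3 CPM in knock-in and 23.5 CPM in wild-type cells, on 105 and 22 UMIs, a ratio of 1.01 (0.34 to 1.74) where 8.78% of genes were higher. Cells classed as female made up 40% of that cluster in the knock-in and 0% in the wild-type library, and the ratio within male cells was 1.00 (0.25 to 1.79).

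The hyaluronidases showed no difference beyond counting error in SMC-like and fibroblast-like cells. Hyal1 stood at 16.0 CPM in knock-in and 16.8 CPM in wild-type SMC-like cells, a log2 ratio of -0.07 (-0.38 to 0.26), and at 6.07 and 6.34 CPM in fibroblast-like cells, a ratio of -0.06 (-0.32 to 0.19). In macrophage or monocyte-like cells it had 19 UMIs in knock-in and 45 UMIs in wild-type cells, a ratio of -0.67 (-1.53 to 0.13) in a class where 6.14% of genes were lower. Naa80 and Hyal3 overlap Hyal1 on the same strand, so reads may be shared and both hyaluronidase values are uncertain.

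Hyal2 was highest in endothelial-like cells, at 106 CPM (78.7 to 141) in knock-in and 116 CPM (94.9 to 141) in wild-type cells, a log2 ratio of -0.13 (-0.65 to 0.38). In macrophage or monocyte-like cells Hyal2 was at 24.96 CPM in knock-in and 17.9 CPM in wild-type cells, a ratio of 0.48 (0.05 to 0.91). SMC-like cells held 11.4 and 11.995 CPM, and fibroblast-like cells 10.9 and 10.3 CPM. In the Penk cluster the ratio was 0.47 (0.12 to 0.81), short of 1.5-fold.

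**Figure D3:**
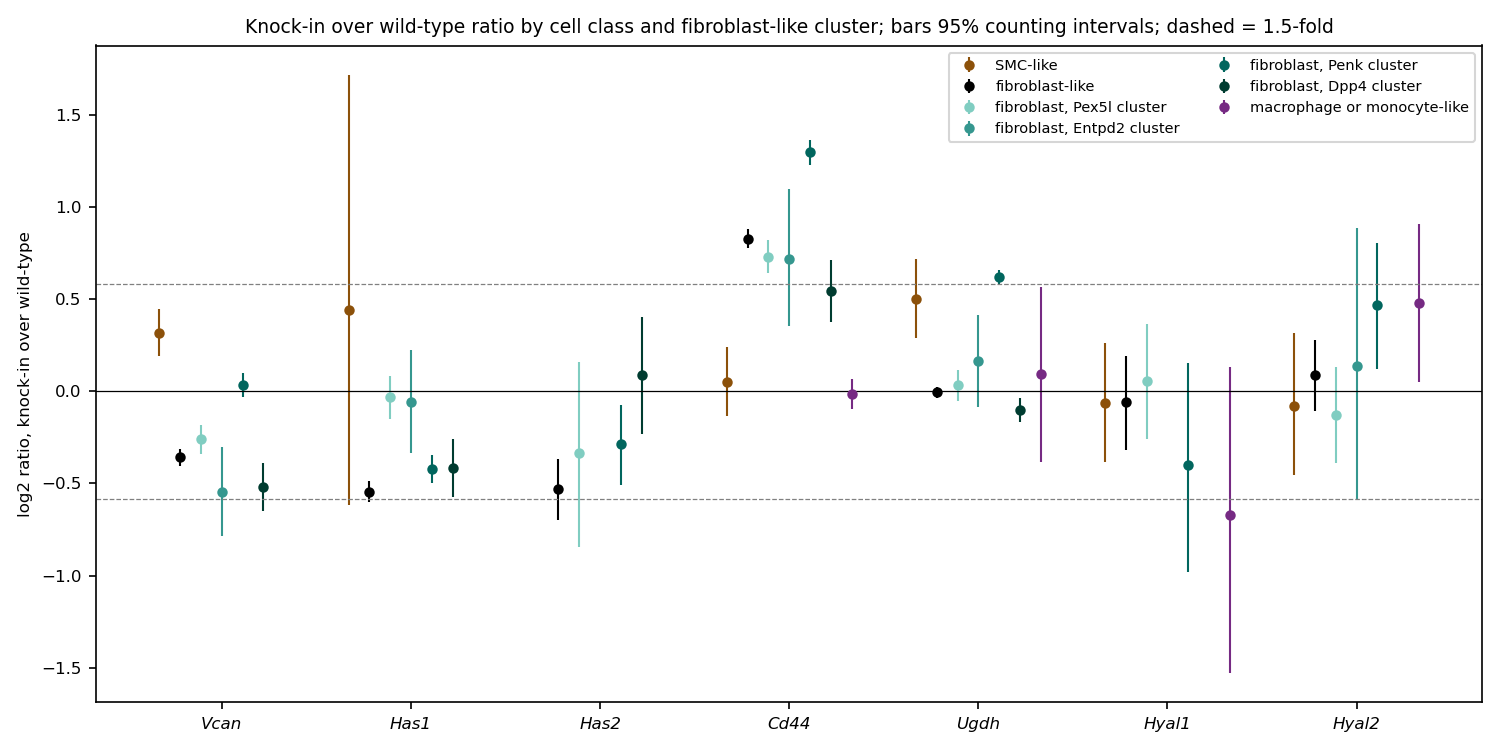
Log2 ratio of knock-in over wild-type for 7 genes in classes and fibroblast-like clusters, with 95% counting intervals as bars and dashed lines at 1.5-fold; points need at least 50 UMIs over both libraries. Cd44 lies above 0 in all fibroblast-like clusters, up to 1.30 in the Penk cluster, and at 0.05 in SMC-like cells.

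Over all kept cells the ratios differed from those within classes. Has1 stood at 50.3 CPM in knock-in and 131 CPM in wild-type cells (-1.38), Has2 at 6.16 and 15.3 CPM (-1.31) and Ugdh at 212 and 341 CPM (-0.69). Has3, on 80 and 22 UMIs, had a log2 ratio of 1.85 and Cd44 one of 0.01, with 138 CPM in knock-in and 137 CPM in wild-type cells. Thus 1 member was higher and 3 were lower, where 13.7% of 16101 genes were higher and 14.8% lower. The shares of SMC-like and fibroblast-like cells moved with these totals, which cannot be told apart from them without the classes.

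Male and female cells gave unlike ratios in fibroblast-like cells. Cells were called female or male by Xist or Y-linked UMIs, and 27.6% of knock-in and 9.13% of wild-type fibroblast-like cells, which had neither, were left out. The mix of clusters moved with sex as well: the Penk and Dpp4 clusters made up 20.9% of knock-in and 36.02% of wild-type female cells, and 27.8% and 37.9% of male cells. Vcan stood at 154 CPM in 1047 knock-in and 256 CPM in 855 wild-type female cells, a log2 ratio of -0.73 (-0.80 to -0.65). In male cells Vcan stood at 209 CPM in 1021 knock-in and 210 CPM in 1538 wild-type cells, a ratio of -0.01 (-0.07 to 0.05). Over the class the knock-in Vcan value was below the wild-type value in female cells and level with it in male cells. Within clusters the female Vcan ratio was -0.08 (-0.19 to 0.02) in the Penk, -0.17 (-0.65 to 0.33) in the Entpd2 and -0.42 (-0.55 to -0.28) in the Pex5l cluster. Among these only the last has an interval below 0. The Dpp4 cluster, with 18 female and 28 male knock-in cells, was not split by sex for any gene.

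Has1 and Has2 also had lower ratios in female than in male cells. In female cells Has1 had 119 CPM in knock-in and 213 CPM in wild-type cells (-0.83), and Has2 12.4 and 25.4 CPM (-1.04). In male cells Has1 had 112 and 127 CPM (-0.19, -0.27 to -0.10), and Has2 14.5 and 15.4 CPM (-0.09, -0.33 to 0.15). Over the class the wild-type female cells held the highest level of each. Within clusters the male Has1 ratio was 1.19 (0.54 to 1.86) in the Entpd2, 0.20 (0.03 to 0.36) in the Pex5l and -0.18 (-0.30 to -0.07) in the Penk cluster. In female cells it was -0.78 (-1.26 to -0.31), -0.04 (-0.22 to 0.14) and -0.66 (-0.77 to -0.55) in the same order.

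Over the class the Ugdh ratios had opposite signs in the sexes. Female cells held 339 CPM in knock-in and 497 CPM in wild-type cells, a log2 ratio of -0.55 (-0.60 to -0.50). Male cells held 535 CPM in knock-in and 374 CPM in wild-type cells, a ratio of 0.52 (0.48 to 0.56). Within the Penk cluster female cells had a ratio of 0.13 (0.06 to 0.20) and male cells one of 0.96 (0.91 to 1.01). Female ratios were 0.18 (-0.28 to 0.66) in the Entpd2 and -0.05 (-0.19 to 0.08) in the Pex5l cluster, so none of these 3 clusters had a female interval below 0. The Dpp4 cluster, not split by sex, held 19.2% of knock-in and 34.4% of wild-type fibroblast Ugdh UMIs.

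**Figure D4:**
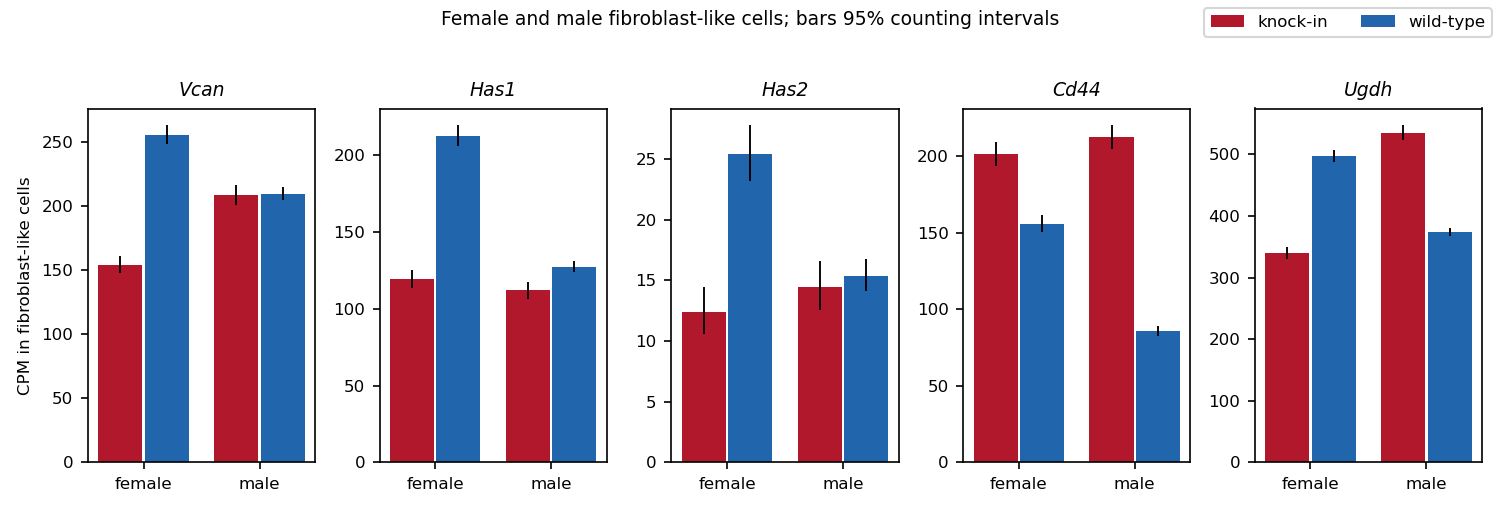
Levels (CPM) of 5 genes in female and male fibroblast-like cells, knock-in in red left of wild-type in blue, with 95% counting intervals as bars. For Ugdh the knock-in bar is lower in female cells (339 and 497 CPM) and higher in male cells (535 and 374 CPM), while Cd44 is above wild-type in both.

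Cd44 values lay above wild-type in both sexes, by different amounts. Female cells held 202 CPM in knock-in and 156 CPM in wild-type cells, a log2 ratio of 0.37 (0.29 to 0.45) that misses 1.5-fold. Male cells held 213 CPM in knock-in and 85.8 CPM in wild-type cells, a ratio of 1.31 (1.23 to 1.38). In the Penk cluster the ratio was 0.70 in female and 1.87 in male cells. The bar plot by sex shows that the knock-in values were close between the sexes and the wild-type values apart. How many females and males entered each library was not given, so sex and animal cannot be told apart, and the difference between the sexes was not tested.

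In SMC-like cells the sexes were closer. Vcan had a log2 ratio of 0.47 (0.27 to 0.68) in female cells, with 134 CPM in knock-in and 96.7 CPM in wild-type cells, and of 0.15 (-0.02 to 0.33) in male cells, with 122 and 109 CPM. Ugdh had ratios of 0.65 in female and 0.49 in male cells, on 66 and 121 wild-type UMIs.

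Genes whose levels followed a member over the clusters of both libraries were listed by Pearson's r of log2(CPM + 1) over 20 values, among 9930 genes. These values share libraries and depth, so r is a description. Closest to Has1 was Gfpt2 (0.95), which encodes an entry enzyme of the hexosamine pathway that supplies UDP-N-acetylglucosamine, followed by Igfbp6, Naalad2, Col5a3 and Opcml. Closest to Has2 were Ackr2 (0.97) and Has2os (0.96), then Ugdh (0.95), Lgi4 and Opcml. Closest to Ugdh were Has2 (0.95), Adgrd1, Opcml, Gfpt2 and Lrrn4cl. Has1 had an r of 0.90 with Ugdh and 0.89 with Has2, while Cd44 had 0.42 with Ugdh and -0.07 with Vcan. Sema3c (0.92), Slc7a6, Foxp2, Pfn2 and Antxr1 were closest to Vcan. Cd80 (0.92), Dtnbp1, Rab32, Ccl7 and Ifi211 were closest to Cd44, and Ocln (0.90), Rfk, Lrg1, Spns2 and Kcnh1 to Hyal2.

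Among other genes of the pathway, those supplying hyaluronan precursors had 1 of 8 higher and 0 lower in SMC-like cells (median log2 ratio 0.05) and 0 higher and 1 lower in fibroblast-like cells (median -0.27). Over all genes tested the median log2 ratios were -0.05 and -0.07. Of all genes tested, 8.16% were higher and 7.04% lower in SMC-like cells, and 7.51% and 7.4% in fibroblast-like cells. In this and the following lists, single values in brackets are log2 ratios. Ugp2, which makes the UDP-glucose that UGDH oxidises, stood at 174 CPM in knock-in and 308 CPM in wild-type fibroblast-like cells, a ratio of -0.82 (-0.87 to -0.78). Gfpt2 stood at 192 and 232 CPM there (-0.27), and had 128 UMIs in knock-in and 11 UMIs in wild-type SMC-like cells (0.96, 0.07 to 2.0). Uap1, which makes UDP-N-acetylglucosamine, stood at 197 and 238 CPM in fibroblast-like cells (-0.27).

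Other hyaluronan receptors and binding partners had 4 of 13 tested genes higher and 0 lower in SMC-like cells (median 0.43), against 8.16% and 7.04% of all genes tested. In fibroblast-like cells 4 of 14 were higher and 1 lower (median 0.13), against 7.51% and 7.4%. Tnfaip6 encodes TSG-6, a hyaluronan-binding protein that moves heavy chains of inter-alpha-inhibitor onto the polymer. It stood at 119 CPM in knock-in and 50.5 CPM in wild-type SMC-like cells, a ratio of 1.23 (1.06 to 1.41). In fibroblast-like cells it stood at 460 and 571 CPM, a ratio of -0.31 (-0.34 to -0.28). Itih4, of the heavy-chain family, stood at 224 and 166 CPM in SMC-like cells (0.43) and at 4.37 and 1.18 CPM in fibroblast-like cells (1.89). Ptx3, a pentraxin of hyaluronan-rich matrix, stood at 11.7 and 23.9 CPM in fibroblast-like cells (-1.04), and Itih5 at 85.8 and 92.2 CPM (-0.10). The endocytic receptor gene Stab2 had 35 and 17 UMIs there (1.84). Hapln3, a link protein gene, had 60 UMIs in knock-in and 1 UMI in wild-type SMC-like cells (3.33, 0.80 to 8.66).

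Hyaluronan breakdown genes had 1 of 5 tested genes higher and 0 lower in each class, with medians of -0.10 in SMC-like and 0.13 in fibroblast-like cells. The lysosomal hexosaminidase gene Hexa had a log2 ratio of -0.10 in SMC-like and of 0.17 in fibroblast-like cells, and the glucuronidase gene Gusb had ratios of -0.33 and -0.19. Hyal3 had 53 and 28 UMIs in fibroblast-like cells (1.72). Of the other lecticans, the proteoglycan family of versican, only Acan was tested in SMC-like cells, at 28.9 CPM in knock-in and 35.99 CPM in wild-type cells.

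Chondroitin sulfate synthesis genes, which build the chains versican carries, lay mostly between the limits. In SMC-like cells 1 of 20 was higher and 0 lower (median -0.12), and in fibroblast-like cells 0 of 21 were higher and 1 lower (median -0.15). The higher gene was Ust, a 2-O-sulfotransferase of the chains, at 127 CPM in knock-in and 81.5 CPM in wild-type SMC-like cells (0.64, 0.50 to 0.78), and at 209 and 158 CPM in fibroblast-like cells (0.40). Xylt1, which starts the chains, had log2 ratios of -0.44 and -0.45 in the 2 classes, and the polymerising factor gene Chpf ratios of 0.05 and -0.02.

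Among versican-cleaving proteases and their inhibitor Timp3, 1 of 9 was higher and 4 lower in SMC-like cells (median -0.44), where 8.16% and 7.04% of all genes tested were. In fibroblast-like cells 1 of 10 was higher and 2 lower (median -0.20), where 7.51% and 7.4% of all genes tested were. Timp3, a matrix-bound inhibitor of metalloproteinases, was the higher gene in both, at 905 CPM in knock-in and 513 CPM in wild-type SMC-like cells (0.82, 0.76 to 0.87) and at 1080 and 522 CPM in fibroblast-like cells (1.05, 1.03 to 1.07). Adamts4, which encodes a versican-degrading aggrecanase, stood at 14.4 and 40.9 CPM in fibroblast-like cells (-1.50) and at 5.37 and 8.47 CPM in SMC-like cells (-0.66). Adamts1, another such protease gene, stood at 401 and 291 CPM in SMC-like cells (0.47) and at 275 and 256 CPM in fibroblast-like cells (0.10). Mmp2, a gelatinase gene, had a log2 ratio of -1.10 in SMC-like and 0.38 in fibroblast-like cells.

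Versican-binding matrix genes had 1 of 9 higher and 2 lower in SMC-like cells (median -0.17; all genes 8.16% and 7.04%), and 1 of 9 higher and 1 lower in fibroblast-like cells (median -0.39; all genes 7.51% and 7.4%). Tnc, which encodes tenascin C, stood at 22.9 CPM in knock-in and 77.7 CPM in wild-type fibroblast-like cells (-1.76) and at 164 and 225 CPM in SMC-like cells (-0.46). Fbn1 and Postn had log2 ratios of -0.55 and -0.39 in fibroblast-like cells and Fn1 one of 0.50. The fibulin genes Fbln1 and Fbln2 had log2 ratios of -2.11 and -1.76 in SMC-like cells and of -0.31 and -0.41 in fibroblast-like cells. The 12 fibroblast markers summed to 1046 CPM in knock-in and 1417 CPM in wild-type SMC-like cells, with 1 of 12 higher in value, and their part in the SMC-like fibulin and Mmp2 ratios was not tested.

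CD44 partners and splicing factors had 2 of 11 genes higher and 1 lower in SMC-like cells (median 0.03; all genes 8.16% and 7.04%), and 0 of 11 higher and 2 lower in fibroblast-like cells (median -0.08; all genes 7.51% and 7.4%). Msn and Rdx, which link the CD44 tail to actin, had log2 ratios of 0.02 and -0.04 in SMC-like and of -0.01 and -0.29 in fibroblast-like cells. Mmp14, a membrane protease that sheds CD44, had log2 ratios of -0.81 in SMC-like and -0.77 in fibroblast-like cells. The CD44 ligand gene Spp1 had 50 UMIs in knock-in and 0 UMIs in wild-type SMC-like cells, at least 2.79-fold higher over the floor.

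**Figure D5:**
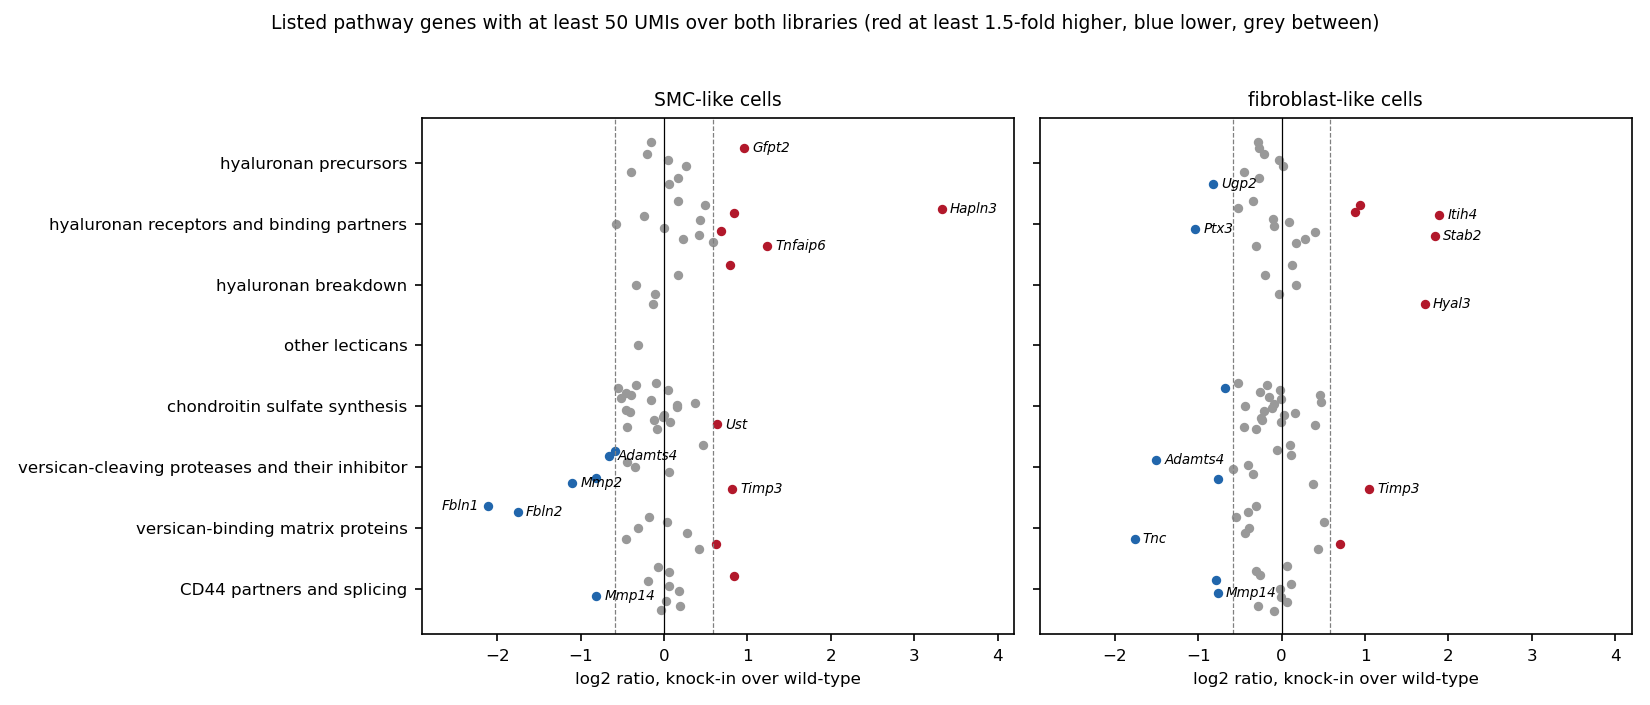
Log2 ratio of knock-in over wild-type for each listed pathway gene with at least 50 UMIs over both libraries, by list, in SMC-like (left) and fibroblast-like cells (right); red points are at least 1.5-fold higher, blue lower and grey between. Timp3 is red in both classes (0.82 and 1.05), and Tnfaip6 is red in SMC-like cells only (1.23, against -0.31 in fibroblast-like cells).

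The plot of listed genes shows that most points of either class lie between the 1.5-fold limits. Spp1 in SMC-like cells is not drawn, since its ratio has no finite value.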

How the data were processed

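The authors deposited raw UMI counts per gene and barcode with no cell filter, which per the file headers come from Cell Ranger 7.1.0, the version that the submitters' processing notes also name. No source used here gives the genome build, annotation or strand setting. All other values were computed from these counts.

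Barcodes with 1000 or more UMIs, 500 or more genes and no more than 10% mitochondrial UMIs were kept. Doublets were scored with scrublet in scanpy 1.11.5. Its automatic threshold marked 8 knock-in and 6 wild-type cells, so the highest-scoring 0.8% per 1000 cells were removed instead (330 knock-in and 109 wild-type cells). The kept cells of the libraries shared 4 barcodes. Both libraries were clustered together: counts per 10000, log transformation, 2000 variable genes, 30 principal components, 15 neighbours and Leiden resolution 0.5 (igraph 0.11.9). Marker lists were set before the clusters were seen but the scoring rule was not: a cluster took the list whose markers, each set against its lowest cluster, had the largest mean log2 gain, and stayed unnamed when another list exceeded 0.65 of that score.

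UMIs were summed per library and class. Sums carry exact Poisson, shares Clopper-Pearson and log2 ratios exact conditional binomial intervals, all 95%. Medians of ratios used a pseudocount of 0.5 UMIs. PCR copies are collapsed by UMIs, yet UMIs of 1 cell are not independent, so intervals cover counting error only. Free RNA was read from barcodes of 10 to 100 UMIs (89340 knock-in and 78512 wild-type), and its share from the markers of another class. Counts of 0 used a floor of 3 counts per library.

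Members and gene lists were chosen with earlier results of these data known. Named are the 8 members, the 3 genes of each pathway list with the most UMIs and list genes at least 2-fold apart with at least 50 UMIs, and the 5 genes most like a member. A gene that this rule takes is not reported here. Likeness used clusters with at least 30 cells in a library and genes and members of at least 20 CPM in 1 or more values. On simulated counts 97% of genes changed by a log2 of 1 passed 1.5-fold among 12349 genes of SMC-like cells, and 98% among 14073 genes of fibroblast-like cells, against 3.83% and 1.24% of unchanged genes. These counts were drawn with Poisson error only, with no variation between cells, mice or libraries. The shares are thus no rate of false calls for the data, where 15.2% and 14.9% of genes passed 1.5-fold in either direction. Alternatives covered the UMI minimum, doublets, clustering, depth, scaling, weight of cells, free RNA, sex and cluster. Python 3.11.15, numpy 2.4.6, scipy 1.17.1, pandas 2.3.3 and matplotlib 3.10.9 were used.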

Additional observations from a re-analysis of the deposited data

Results flagged for a closer look

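Vcan stood apart between classes: its log2 ratio of knock-in over wild-type was 0.32 in SMC-like and 4.60 in endothelial-like cells, but -0.36 in fibroblast-like cells. These were set out because the ratios have opposite signs with counting intervals that leave out 0. In SMC-like cells that interval includes 0 with libraries clustered separately (0.11, -0.01 to 0.22) and in male cells (0.15, -0.02 to 0.33). The difference between classes was not tested, since each genotype has 1 library.

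Ugdh in fibroblast-like cells stood out for the same reason between the sexes, with a log2 ratio of -0.55 in female and 0.52 in male cells. Within clusters the female ratio was 0.13 in the Penk, 0.18 in the Entpd2 and -0.05 in the Pex5l cluster, and the Penk and Dpp4 clusters made up 20.9% of knock-in and 36.02% of wild-type female cells. This difference was not tested either, and the number of animals of each sex behind the libraries was not given.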

How the results depend on the processing

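No paired analysis was possible because each genotype has 1 library and the labels give no shared replicate numbers. Of 167 recomputed member ratios, 118 stayed within the counting interval of the reported value and 49 did not. Among these, 1 member at least 1.5-fold apart took the opposite sign: Cd44 in the Sncg-led cluster (-0.74) stood at 0.48 in cells of 8000 to 20000 UMIs, where Ugdh in the Penk cluster (0.62) stood at 0.52. The depth range was tried in single clusters after seeing the data. Vcan in SMC-like cells (0.32) stood at 0.11 (-0.01 to 0.22) with libraries clustered separately. Ugdh in fibroblast-like cells (-0.01) left its counting interval in 10 of 12 alternatives. Among them were -0.52 as a mean of per-cell CPM and -0.16 with Leiden resolution 1.0. Cd44 in fibroblast-like cells (0.83) stood at 0.72 with Leiden resolution 1.0, 0.89 with libraries clustered separately, 0.90 with median-of-ratios scaling, 0.44 as a mean of per-cell CPM, 0.37 in female cells, 1.31 in male cells, 0.73 in the largest cluster and 1.04 with clusters weighted by wild-type UMIs, a setting chosen after seeing the data, as was leaving out the top endothelial-like cell. The number of members at least 1.5-fold apart in SMC-like cells (1) was 2 in cells of 8000 to 20000 UMIs, 2 with per-cell means, 2 with free RNA subtracted and 0 in male cells. In fibroblast-like cells (1) it was 3 at resolution 1.0, 3 with per-cell means and 3 in female cells. At resolution 1.0 these were Cd44, higher, and Has1 (-0.74) and Has2 (-0.69), lower. With per-cell means they were Vcan (-0.67), Has1 (-0.59) and Has2 (-0.91), all lower. In female cells they were the same genes, all lower (-0.73, -0.83 and -1.04). Cd44 missed 1.5-fold in both of the last settings. Over all genes in SMC-like cells, 1008 were higher, against 2132 at a minimum of 10 UMIs and 5960 with no minimum beyond 1 UMI, and 869 were lower, against 1629 and 3029. In fibroblast-like cells 1057 were higher, against 2123 and 4556, and 1042 were lower, against 1845 and 4185. Depth limits Has2 and Has3 most: in SMC-like cells their wild-type values rest on 1 and 6 UMIs.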

Other observations

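The unnamed cluster led by Mcpt4, Trbc2 and Ube2c, a mix of mast-cell, T-cell and cycling genes with 60 knock-in and 113 wild-type cells, had lower values of 4 members in the knock-in library. Vcan stood at 50.8 CPM in knock-in and 236 CPM in wild-type cells, a log2 ratio of -2.21 (-2.61 to -1.84). Has1 stood at 27.5 and 127 CPM (-2.20), Cd44 at 66.7 and 163 CPM (-1.29) and Ugdh at 146 and 319 CPM (-1.13). Of the 8 members these 4 reached the minimum of 50 UMIs. In this cluster 31.1% of 8847 genes were at least 1.5-fold lower and 51.6% were that far apart in either direction, and the mix of cell types in it was not compared between the libraries.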
